A study of Mus musculus with 6 samples.

Results

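The genes described are 48 imprinted genes of the mouse other than the H19 and Igf2 pair, chosen by name and grouped by imprinted locus. They comprise 6 genes of the Dlk1-Meg3 locus, 3 of the Peg3 locus, 5 of the Peg10 locus, 7 of the Kcnq1 locus, 6 of the Snrpn locus, Gnas, and 20 single genes or pairs elsewhere. Of the 48, 44 had an Ensembl identifier among the 37991 genes of the count files, and Rian, Mirg, Kcnq1ot1 and Snrpn were not matched, so no value is given for them. In CPM, the count of a gene scaled to the library's total on all genes, 27 of the 44 reached 1 CPM in at least 1 of the 6 libraries. The other 17 stayed under 1 CPM, and Dlk1, Rtl1 and Slc22a3 had 0 counts in all 6. The genes nearest to that limit were Mkrn3, with a highest value of 1.425 CPM, and Zdbf2, with a highest value of 0.943 CPM.

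Cytoplasmic polyadenylated RNA was sequenced from C2C12 cells, a myoblast line from the C3H mouse strain that leaves the cell cycle and fuses into myotubes when serum is reduced. KAP1, the protein made from Trim28, was knocked down with a lentiviral short hairpin (shKap1), and control cells (shCtrl) carried a lentiviral hairpin against luciferase, so every library comes from virus-transduced cells. Cells taken after 48 hours in medium with 2% horse serum and an insulin, transferrin and selenium supplement (MT) gave 1 shKap1 and 1 shCtrl library. Proliferating myoblasts in 10% fetal calf serum (MB) gave 2 shKap1 and 2 shCtrl libraries. The labels do not say that replicates were separate cultures, so p-values measure the spread between these libraries, which may be technical. All libraries come from a single line, and the counts do not separate the parental copies of a gene, so only the summed output of both copies is described.

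The libraries held 36247530 to 49839994 counts on genes. Trim28 stood at 122 CPM in the MT shKap1 library and 382 CPM in the MT shCtrl library, and at 152 and 101 CPM in the MB shKap1 libraries against 587 and 417 CPM in the MB shCtrl libraries. Myoblast markers were present, with Des at 307 to 1209 CPM, Cdh15 at 26.1 to 263.5 CPM and Myf5 at 34.8 to 91.6 CPM, while Pax7 stayed at or under 0.301 CPM. Myod1 had 27.5 CPM in the MT shKap1 library and 232.5 CPM in the MT shCtrl library. In MB it had 3.49 and 20.45 CPM with shKap1 against 11.8 and 31.0 CPM with shCtrl. Myf5 was higher with shKap1 in MT, at 82.4 CPM against 34.8 CPM. Of the markers of other cell types, Adipoq and Snap25 were at 0 in all libraries and Ptprc at or under 0.0492 CPM, while Fabp4 of the adipocyte list reached 11.6 CPM, Tubb3 of the neuron list 28.5 CPM and Cd68 of the haematopoietic list 3.72 CPM. The 3 smooth muscle markers (Acta2, Tagln and Cnn1), all with counts, summed to 5507 CPM in the MT shKap1 library and 5401 CPM in the MT shCtrl library, against 5784 and 1930 CPM in the MB shKap1 libraries and 2980 and 1293 CPM in the MB shCtrl libraries. Most of the MT sums was Acta2, at 4685 CPM with shKap1 and 5116 CPM with shCtrl. Tagln (765 against 280 CPM) and Cnn1 (57.1 against 5.14 CPM) were higher with shKap1 in MT. The 7 markers of muscle differentiation, all with counts, summed to 113 CPM in the MT shKap1 library and 6371 CPM in the MT shCtrl library, against 11.5 and 68.4 CPM in the MB shKap1 libraries and 10.97 and 119 CPM in the MB shCtrl libraries. The excluded H19 had 2513 CPM in the MT shKap1 library, 8459 CPM in the MT shCtrl library, 216 and 2704 CPM in the MB shKap1 libraries and 196 and 1725 CPM in the MB shCtrl libraries. Replicate 2 of both MB groups stood apart from replicate 1, and the deposited data of replicate 1 and of both MT libraries share a mark that those of replicate 2 lack. That mark is used below as the batch, although the labels do not explain it.

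Imprinted genes are transcribed mainly from the copy inherited from 1 parent, which is set by a DNA methylation mark laid down in egg or sperm at an imprinting control region. In mouse embryos, the zinc finger proteins ZFP57 and ZFP445 bind the methylated copy of these regions and recruit KAP1, which brings the histone methyltransferase SETDB1 and DNA methyltransferases so that the mark survives early development. Many of the genes regulate growth of the fetus and placenta, and several, among them Peg3, Mest and H19, are known to be active in muscle precursor cells. Long noncoding RNAs such as Airn, Meg3 and Kcnq1ot1 are themselves imprinted and act, or remain, in the nucleus, which matters for RNA taken from cytoplasm.

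Promoters of 3 paternally expressed members are shown because their control region coincides with the promoter and because they differ in the short core that ZFP57 binds when methylated. The sequences are the 250 bases before a start site, from RefSeq. Capitals mark TGCCGC, or GCGGCA where it lies on the opposite strand.
Mest (GRCm38.p6, chr6:30737800-30738049, + strand): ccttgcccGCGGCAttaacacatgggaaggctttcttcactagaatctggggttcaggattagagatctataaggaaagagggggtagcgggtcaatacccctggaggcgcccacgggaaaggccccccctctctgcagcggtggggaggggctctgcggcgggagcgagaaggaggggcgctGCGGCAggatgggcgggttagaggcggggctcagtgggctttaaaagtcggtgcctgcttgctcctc
Plagl1 (GRCm38.p6, chr10:13090582-13090831, + strand): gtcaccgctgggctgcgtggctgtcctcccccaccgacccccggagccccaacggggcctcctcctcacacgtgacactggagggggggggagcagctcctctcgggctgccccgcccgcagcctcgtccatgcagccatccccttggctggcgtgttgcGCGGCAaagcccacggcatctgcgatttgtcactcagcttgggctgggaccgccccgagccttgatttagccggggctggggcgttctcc
Peg3 (GRCm38.p6, chr7:6730420-6730669, - strand): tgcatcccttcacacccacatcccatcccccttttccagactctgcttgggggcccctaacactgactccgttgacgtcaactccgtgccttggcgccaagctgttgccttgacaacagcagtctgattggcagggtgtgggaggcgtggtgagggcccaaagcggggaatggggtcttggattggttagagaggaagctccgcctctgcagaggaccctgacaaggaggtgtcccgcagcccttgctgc
This Mest start site is the second of 3 in the table, and the 250 bases before the first do not hold the core. The printed stretch of Mest holds the core at 2 places, that of Plagl1 holds it once, and that of Peg3 does not hold it. For the shares, both strands of 300-base windows were searched, which add the 50 bases after each start, and the core was found in 14 of 61 such windows of member genes (23%) and in 11.6% of all 32851 windows. ATGGCG, the core bound by the zinc finger protein YY1, with CGCCAT on the opposite strand, was found in 8 of the 61 windows (13.1%) and in 8.93% of all. Of the 48 genes, 41 have a window in the table. At least 1 window with the ZFP57 core was found for 13 of these, and for 13.1% of all 27025 genes with a window. Windows of 1 gene can overlap, as those of Mest start sites 2 and 3 do. A match describes the letters only, and these windows leave out most of each control region.

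**Figure D1:**
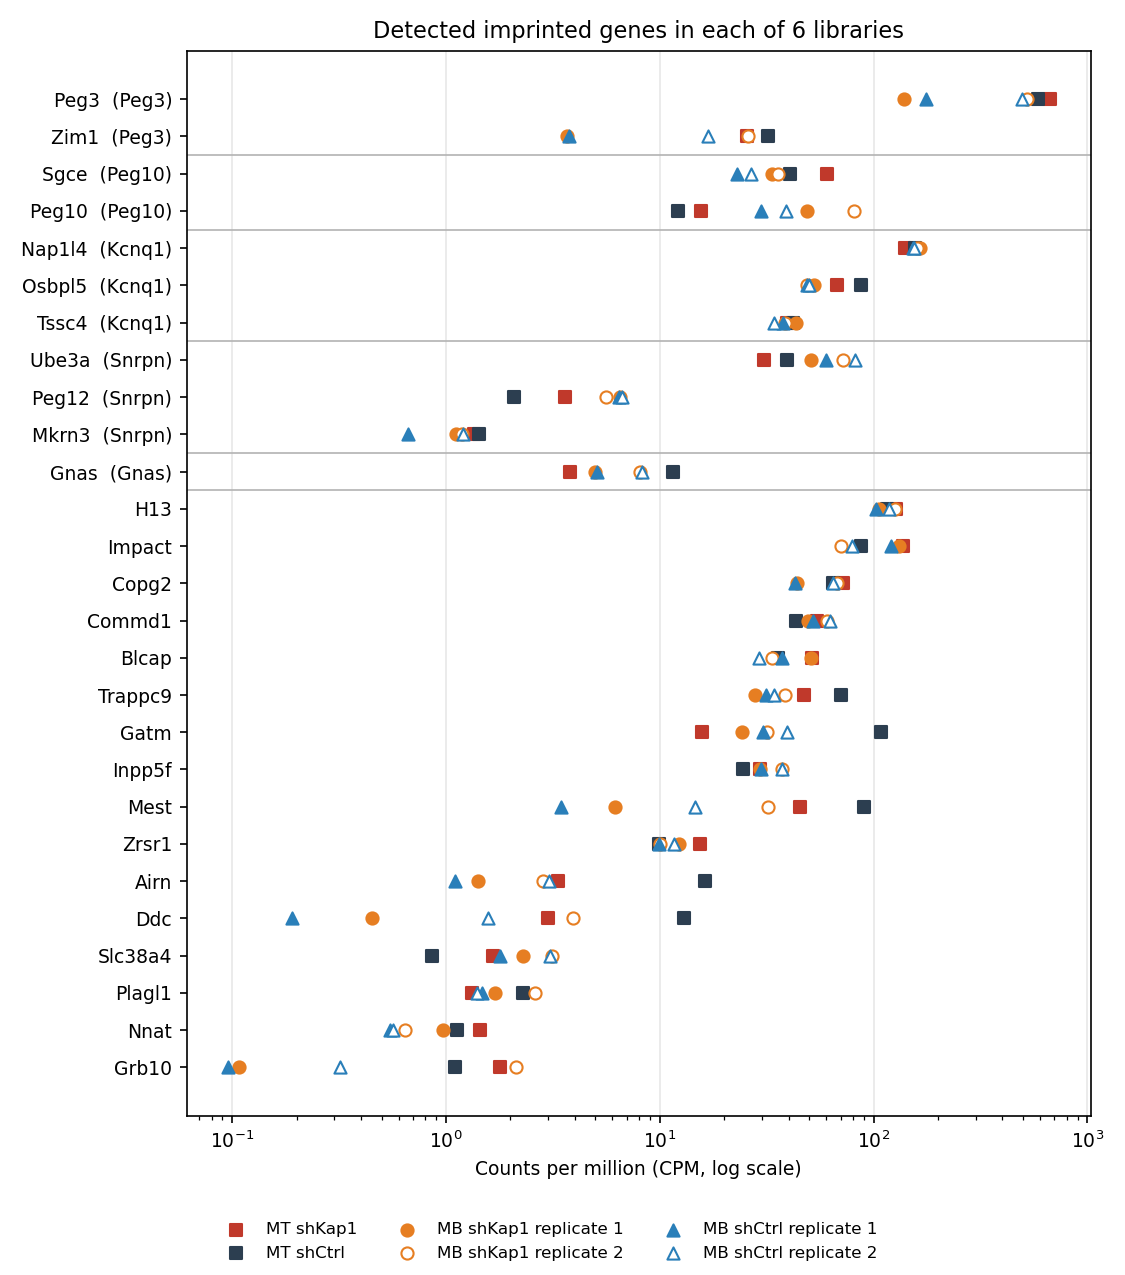
CPM on a log axis for the 27 genes that reached 1 CPM, 1 symbol per library, ordered by locus and then by median. Peg3, Zim1, Mest, Ddc and Grb10 spread widely between MB replicate 1 (filled) and replicate 2 (open), while Nap1l4, H13 and Tssc4 lie close together in all 6 libraries.

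The matched genes of the Dlk1-Meg3 locus gave almost no reads in these cells. Dlk1, a transmembrane regulator of differentiation, and Rtl1, a retrotransposon-derived gene, had 0 counts in all libraries. Meg3, the maternal noncoding RNA of the locus, had 1 count, in the MT shKap1 library, and Dio3, a thyroid hormone deiodinase, had 1 count in each MB shKap1 library. From the start of Dlk1 to the end of Dio3 the annotation places 79 identifiers, 53 of them microRNAs and 22 small nucleolar RNAs, and 2 of the 79 had any count, 3 counts in all. A count of 0 in a library allows up to 0.0602 to 0.0828 CPM (3 counts). Each counted identifier of the locus thus lay at or under that limit in both conditions and at both stages. Rian and Mirg were not matched and are not covered. Since the RNA was cytoplasmic and polyadenylated, the counts do not describe nuclear or small RNAs of the locus.

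Peg3, a paternally expressed zinc finger gene, was the most counted of the set, holding 13.4% to 40.1% of the summed CPM of the 44 genes. It stood at 666 CPM in the MT shKap1 library and 588 CPM in the MT shCtrl library, and at 139 and 522 CPM in the MB shKap1 libraries against 176 and 493 CPM in the MB shCtrl libraries. Replicate 2 was high and replicate 1 low in both MB groups, and the groups overlapped. Per kilobase of exon, where levels of different genes can be compared, Peg3 ran from 10.4 to 49.99 CPM per kb over the 6 libraries, a range that crosses those of Tssc4 (18.5 to 23.5), Impact (13.8 to 26.7) and Nap1l4, a histone chaperone of the Kcnq1 locus (45.2 to 53.5), so their order depends on the library. Zim1, the maternally expressed zinc finger neighbour of Peg3, had 25.6 CPM in the MT shKap1 library and 32.1 CPM in the MT shCtrl library, with 3.69 and 26.0 CPM in the MB shKap1 libraries and 3.77 and 16.8 CPM in the MB shCtrl libraries. Its CPM equalled 2.14% to 5.46% of that of Peg3. Usp29, which shares the Peg3 promoter region, had 26 counts over the 6 libraries.

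At the Peg10 locus, Peg10, a gag-like gene of retrotransposon origin needed by the placenta, stood at 15.5 CPM in the MT shKap1 library and 12.2 CPM in the MT shCtrl library. In MB it had 48.5 and 80.6 CPM with shKap1 against 29.8 and 38.8 CPM with shCtrl, and the MB groups did not overlap. Its divergently transcribed neighbour Sgce, which encodes epsilon-sarcoglycan of the dystrophin-associated complexes, had 60.6 CPM in the MT shKap1 library and 40.5 CPM in the MT shCtrl library, with 33.5 and 35.7 CPM in the MB shKap1 libraries and 22.8 and 26.6 CPM in the MB shCtrl libraries. The ratio of Peg10 to Sgce in CPM was 0.256 and 0.302 in the MT shKap1 and shCtrl libraries and between 1.3 and 2.26 in the MB libraries. Ppp1r9a, Asb4 and Calcr, further genes of the locus, stayed under 1 CPM, at up to 0.0687, 0.343 and 0.0201 CPM.

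Of the Kcnq1 locus, Nap1l4, Tssc4 and Osbpl5, an oxysterol-binding lipid transfer protein, were detected, while Phlda2, Ascl2 and Kcnq1 itself had 2, 2 and 16 counts in all. Nap1l4 ran from 140 to 165 CPM and Tssc4 from 34.1 to 43.4 CPM over the 6 libraries, the tightest ranges of the detected genes together with H13 (102 to 127 CPM), a signal peptide peptidase. Of the Snrpn locus, Ube3a, a ubiquitin ligase imprinted in neurons, ran from 30.7 to 82.1 CPM, Peg12 from 2.09 to 6.67 CPM and Mkrn3 from 0.667 to 1.425 CPM. Ndn and Magel2, related genes of the MAGE family, had 57 and 14 counts in all, and 12 of the 14 Magel2 counts lay in replicate 2 of MB shKap1. Gnas, which encodes the stimulatory G protein alpha subunit, stood at 3.78 CPM in the MT shKap1 library and 11.5 CPM in the MT shCtrl library, with 4.97 and 8.11 CPM in the MB shKap1 libraries and 5.10 and 8.29 CPM in the MB shCtrl libraries.

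Among the single genes, Impact (an inhibitor of the stress kinase GCN2), Copg2 (a coat protein of Golgi vesicles), Commd1, Blcap, Trappc9 (a vesicle tethering factor), Inpp5f (an inositol phosphatase) and Gatm (the enzyme of the first step of creatine synthesis) had medians of 29.5 to 104 CPM. Mest, a hydrolase-like gene of the mesoderm, and Ddc, the aromatic amino acid decarboxylase beside Grb10, had the widest ranges among detected genes, 26.3-fold for Mest and 68.0-fold for Ddc between the lowest and highest library. Airn, the noncoding RNA transcribed antisense across Igf2r, ranged 14.8-fold and Grb10, an adaptor that restrains insulin and IGF receptors, 22.3-fold. Slc22a3, Rasgrf1, Nap1l5 and Zdbf2, a paternally expressed zinc finger gene, stayed under 1 CPM.

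Replicate 2 was more than 2-fold above replicate 1 in both MB groups for 7 of the 30 members tested, namely Airn, Ddc, Grb10, Mest, Peg3, Zdbf2 and Zim1, against 4.1% of all tested genes. Low counts limit 2 of these. Zdbf2 had 2 and 7 counts in the MB shKap1 libraries and 0 and 3 in the MB shCtrl libraries, and Grb10 had 4 and 13 in the latter. Differentiation markers were also higher in replicate 2 of both MB groups, and Malat1, a nuclear RNA, was lower there, at 267 CPM against 661 CPM in the MB shKap1 libraries and at 268 CPM against 692 CPM in the MB shCtrl libraries. Their part in the spread of the imprinted genes was not tested.

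Because of this spread, 2 fits were used, each over all 6 libraries and 16472 genes with a mean per group, by edgeR's quasi-likelihood test with Benjamini-Hochberg adjustment over all genes tested. The fit without a batch term called 0 genes at an adjusted p under 0.05 in each of the 5 comparisons. The fit with the batch term had 1 residual degree of freedom and a biological coefficient of variation of 9.74%, against 2 and 32.9% without it. "Rose" and "fell" below refer to calls of the fit with the batch term, none of which edgeR made without it while the filter on low counts was kept. Both MT groups are single libraries in the same batch, and their tests assume that these vary as the MB libraries do. The 30 tested members are the 27 detected genes together with Asb4, Ndn and Zdbf2. Ndn passed the filter on low counts only through shKap1 libraries, Asb4 only through MB replicate 1, and Zdbf2 only through the MT shCtrl library.

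**Figure D2:**
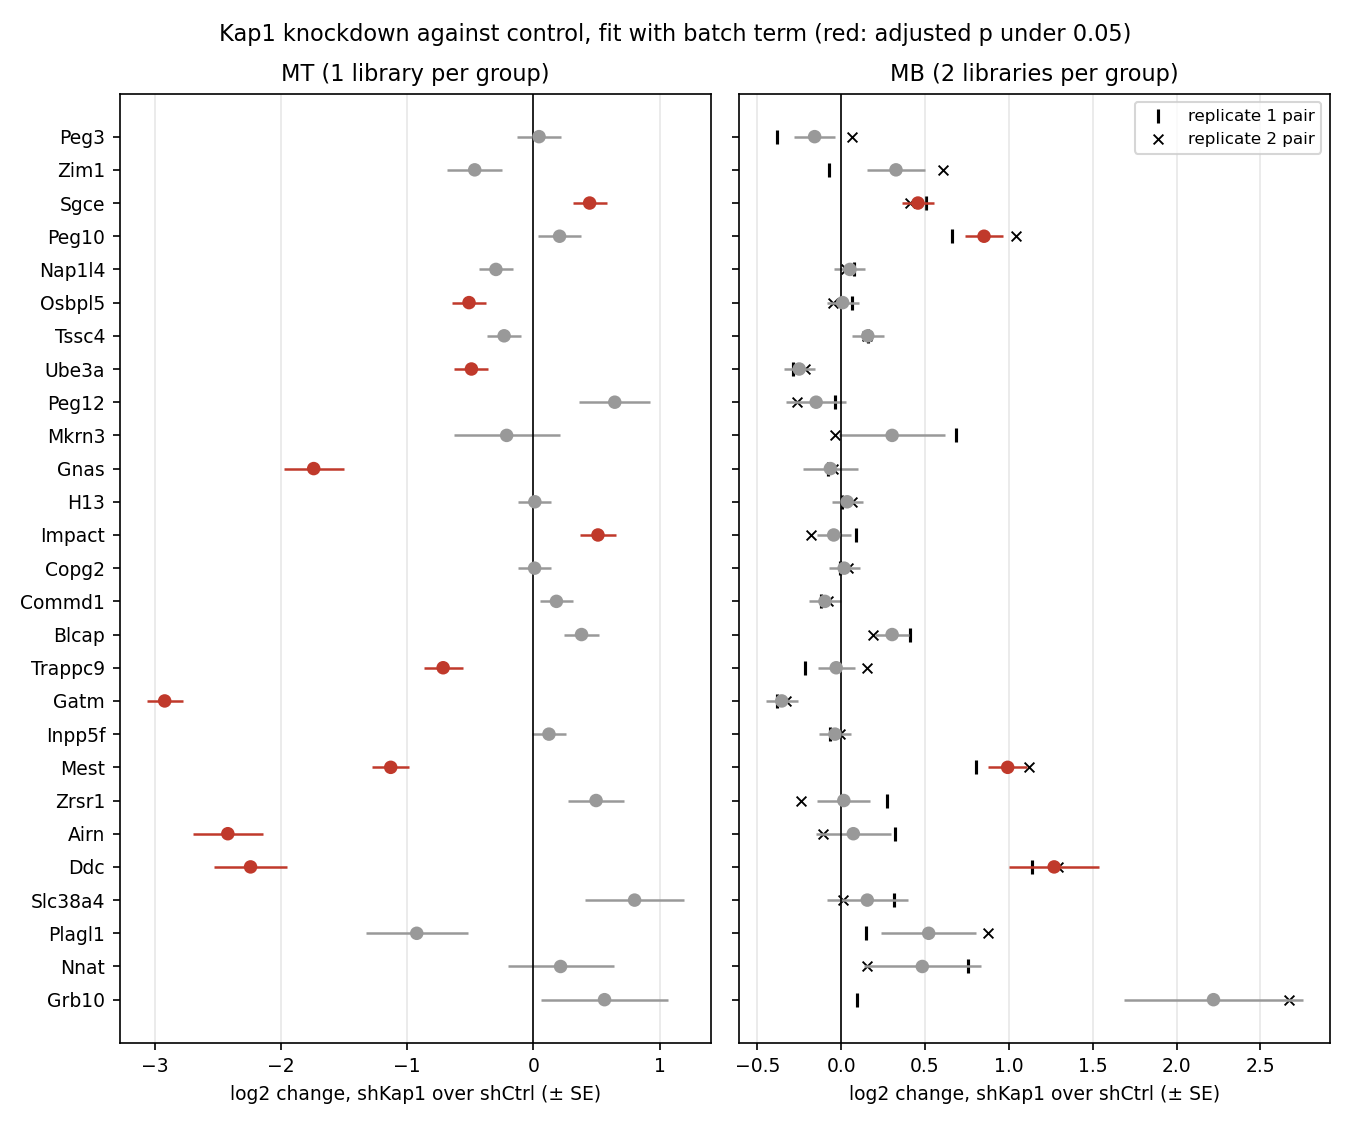
Log2 change of shKap1 over shCtrl with its standard error for the 27 detected genes in MT (left) and MB (right), from the fit with the batch term, with calls in red. Black marks in the MB panel are the differences within replicate 1 and within replicate 2, which lie on the same side of 0 for the 4 genes called in MB.

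In proliferating myoblasts, the first question is which imprinted genes changed when KAP1 was reduced. Mest, Peg10, Sgce and Ddc rose, and 0 members were called lower. That is 4 of 30 members, where 3.84% of all tested genes were called (2.51% higher and 1.34% lower). Of the 30, 21 had a log2 change above 0, and the median was 0.11, against -0.01 over all tested genes. The summed smooth muscle markers given above were also higher with shKap1 in both MB replicates, and Myod1 was lower in both. The part of these markers in the changes was not tested.

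Mest had 6.17 and 32.0 CPM in the MB shKap1 libraries against 3.43 and 14.5 CPM in the MB shCtrl libraries. The groups overlapped, since shCtrl replicate 2 lay above shKap1 replicate 1, but within each replicate the knockdown was higher. The log2 change was 0.99 ± 0.12 (SE, edgeR adjusted p = 0.00174), and the differences within replicate 1 and replicate 2 were 0.80 and 1.12. Ddc had 0.450 and 3.92 CPM with shKap1 against 0.191 and 1.57 CPM with shCtrl, again high in replicate 2 of both groups. Its log2 change was 1.27 ± 0.27 (SE, edgeR adjusted p = 0.0285), and the differences within replicate 1 and replicate 2 were 1.14 and 1.29. Peg10, whose MB groups did not overlap, changed by 0.85 ± 0.11 (SE, edgeR adjusted p = 0.00348), and Sgce, likewise without overlap, by 0.46 ± 0.10 (SE, edgeR adjusted p = 0.0284). Within replicate 1 and replicate 2 the differences were 0.66 and 1.04 for Peg10 and 0.51 and 0.41 for Sgce.

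Grb10 had 0.107 and 2.13 CPM in the MB shKap1 libraries against 0.0954 and 0.320 CPM in the MB shCtrl libraries, and its log2 change of 2.22 ± 0.53 missed the threshold (SE, edgeR adjusted p = 0.059). Its difference was 0.09 within replicate 1 and 2.67 within replicate 2, so it rests on replicate 2. Gatm, with a log2 change of -0.35 ± 0.10, also missed it (SE, edgeR adjusted p = 0.0762). Without the filter on low counts both were called, Grb10 higher and Gatm lower (edgeR adjusted p = 0.00942 and 0.0407). Between the MB groups, 7 of the 30 members (23.3%) did not overlap in CPM, where 26.5% of all tested genes did not overlap (15.6% higher), so the count is near that of all genes. All 7 were higher in shKap1 (Peg10, Sgce, Plagl1, Tssc4, Nap1l4, Ndn and Nnat). Ndn among them is a description, since it passed the filter on low counts only through shKap1 libraries, where it is high. Without the batch term, 2 of 30 members and 454 genes had an unadjusted p under 0.05 in edgeR, the smallest being 0.0399 for Sgce and 0.0487 for Peg10, and DESeq2 called 0 members. With the batch term DESeq2 called 2 members, losing Sgce and Ddc. Leaving out an MB library was possible only without the batch term. There the Mest change ran from -0.60 without shKap1 replicate 2 to 2.46 without shCtrl replicate 2, with 0.37 without shCtrl replicate 1 and 1.82 without shKap1 replicate 1. For Ddc the same omissions gave -1.02, 3.49, 0.45 and 2.13. Peg10 stayed between 0.45 without shKap1 replicate 2 and 1.22 without shKap1 replicate 1, and Sgce between 0.34 and 0.58.

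**Figure D3:**
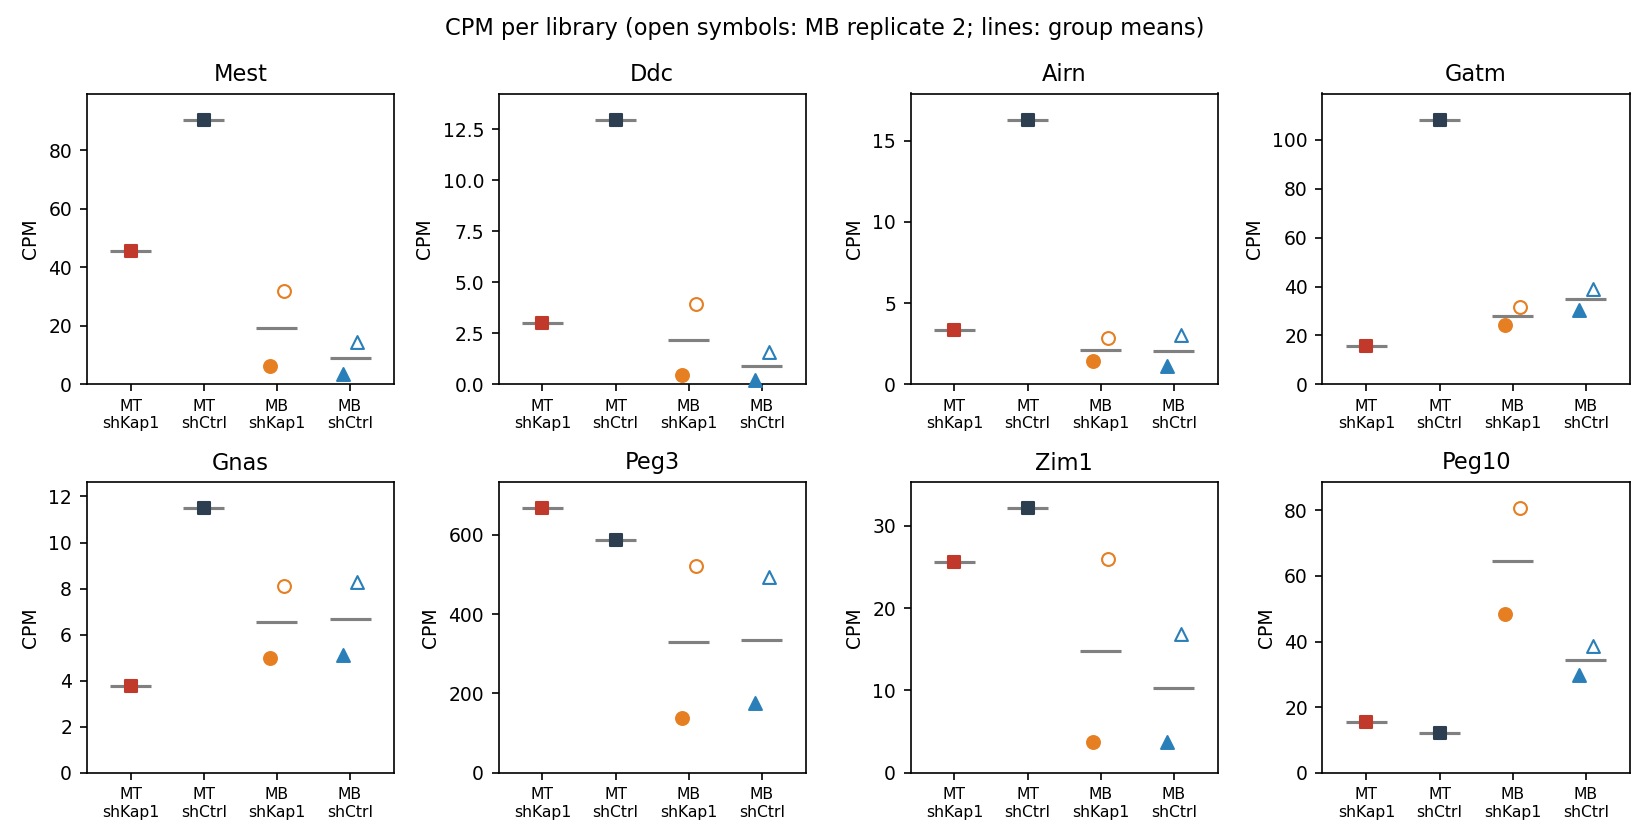
CPM per library for 8 members, 1 panel each with its own axis from 0, with group means as lines and MB replicate 2 as open symbols. Mest, Ddc, Airn, Gatm and Gnas are highest in the MT shCtrl library and lower in the MT shKap1 library, Peg3 and Zim1 are high in MT and in MB replicate 2, and Peg10 is highest in MB shKap1.

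After 48 hours of differentiation, Gatm, Airn, Ddc, Gnas, Mest, Trappc9, Osbpl5 and Ube3a fell with the knockdown, and Impact and Sgce rose. Zdbf2 was also called lower, but it passed the filter on low counts only through the MT shCtrl library, where it is high, so its call is a description. With Zdbf2 that is 11 of 30 members, where 20.3% of all tested genes were called (9.09% higher and 11.2% lower). The median log2 change of the 30 was 0.01, against 0.02 over all tested genes, and 16 of the 30 had a change above 0. In bulk RNA, fewer cells of a type and less RNA per cell cannot be told apart. The differentiation markers, Myod1, Tagln and Cnn1 differed between these same 2 libraries as given above. Their part in these changes was not tested.

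Gatm (ENSMUSG00000027199, chromosome 2) had 15.7 CPM in the MT shKap1 library and 108 CPM in the MT shCtrl library, and it was the lowest of all 6 libraries with the knockdown and the highest with the control. Its log2 change was -2.92 ± 0.14 (SE, edgeR adjusted p = 6.31e-07). Airn (ENSMUSG00000078247, chromosome 17) had 3.34 CPM with shKap1 and 16.3 CPM with shCtrl, a change of -2.42 ± 0.28 (SE, edgeR adjusted p = 0.00024). Airn CPM relative to its antisense partner Igf2r was 2.92% in the MT shKap1 library and 8.62% in the MT shCtrl library, against 1.94% to 2.67% in the MB libraries.

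Ddc (ENSMUSG00000020182, chromosome 11) had 3.01 CPM with shKap1 and 12.96 CPM with shCtrl in MT, and changed by -2.24 ± 0.29 (SE, edgeR adjusted p = 0.000468). Gnas had 3.78 CPM with shKap1 and 11.5 CPM with shCtrl, and changed by -1.74 ± 0.24 (SE, edgeR adjusted p = 0.000744). Mest (ENSMUSG00000051855, chromosome 6) had 45.5 CPM with shKap1 and 90.4 CPM with shCtrl, and changed by -1.13 ± 0.15 (SE, edgeR adjusted p = 0.00052). Mest and Ddc thus lay on opposite sides of 0 in MB and MT. Zdbf2 had 0 counts in the MT shKap1 library and 47 in the MT shCtrl library, at least 11.4-fold lower with the knockdown at a floor of 3 counts.

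The smaller changes in MT were -0.72 for Trappc9, -0.51 for Osbpl5, -0.49 for Ube3a, 0.51 for Impact and 0.45 for Sgce (log2, edgeR adjusted p from 0.0104 to 0.0406). Trappc9 had 47.2 CPM with shKap1 and 70.5 CPM with shCtrl, and Impact had 137 CPM with shKap1 and 87.4 CPM with shCtrl. Sgce was called higher with the knockdown at both stages, in MT not with DESeq2 size factors (edgeR adjusted p = 0.0624). At the other end, Peg3, Copg2 and H13 had log2 changes of 0.04, 0.01 and 0.01 in MT, with SE of at most 0.17. Low counts limited 2 further genes, and Ndn, which passed the filter only through shKap1 libraries, is given as a description. Ndn had 13 counts with shKap1 and 2 with shCtrl in MT, a ratio of 8.94 (exact 95% interval 2.02 to 81.6), and Asb4 had 7 and 1, a ratio of 9.62 (1.24 to 434), intervals that cover counting error only.

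Without the batch term, 5 of 30 members and 1383 genes had an unadjusted p under 0.05 in MT. The smallest among members belonged to Gatm (edgeR adjusted p = 0.457), and DESeq2 called 1 member. With the batch term DESeq2 called 6 of the 11, losing Impact, Osbpl5, Sgce, Ube3a and Zdbf2. Scaling to total library size in place of TMM moved the median of all genes to 0.16 (log2), gave 3 members higher and 7 lower, and ended the calls of Osbpl5 and Ube3a while adding Blcap. Over all genes, 44.8% of calls were higher with TMM, 62.7% with total library size and 38.1% with DESeq2 size factors.

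**Figure D4:**
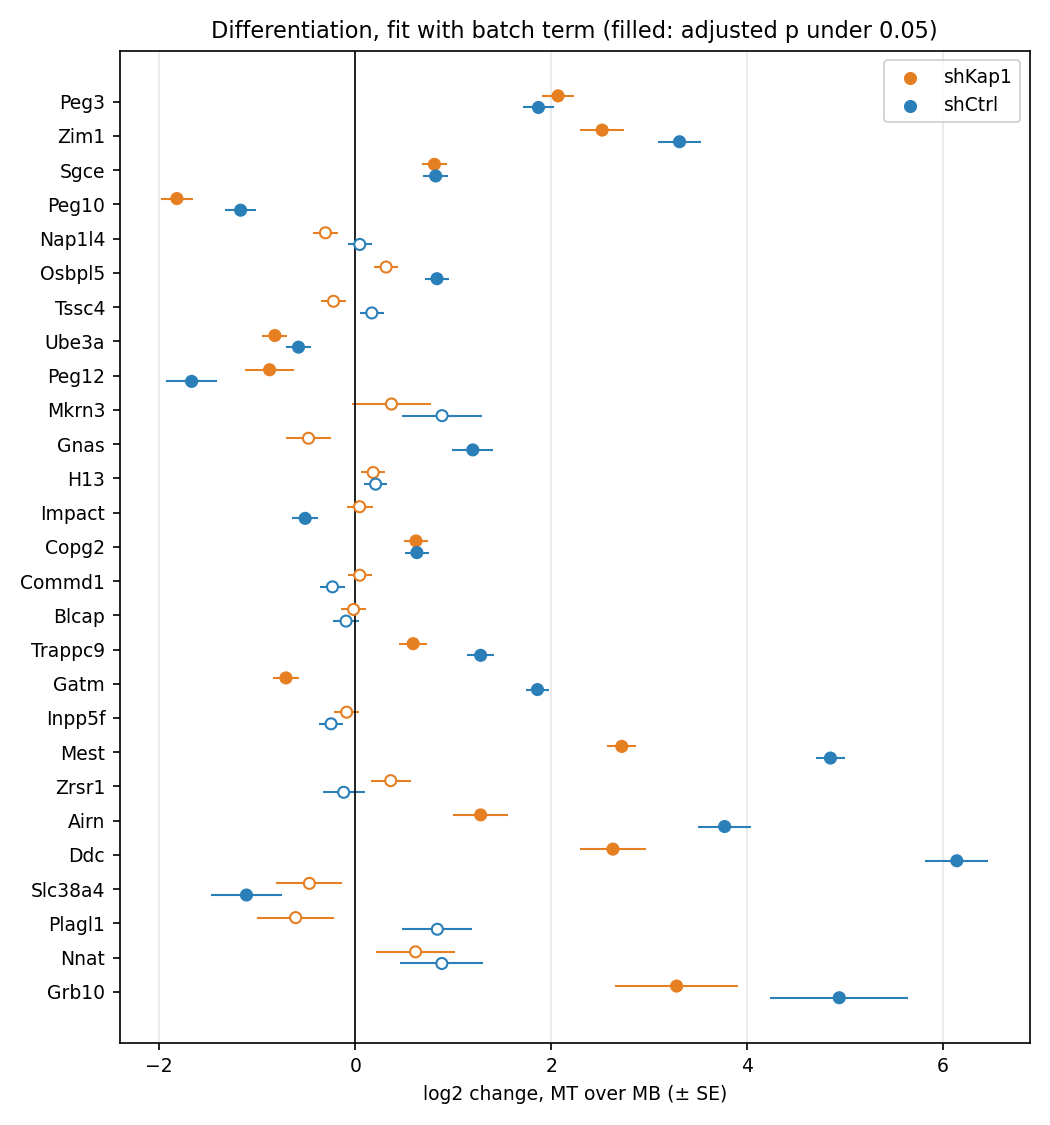
Log2 change of MT over MB with its standard error in shKap1 cells (orange) and shCtrl cells (blue) for the 27 detected genes, from the fit with the batch term, with calls filled. Mest, Ddc, Airn and Gatm lie further right in shCtrl than in shKap1 cells, and Peg3, Sgce and Copg2 lie at nearly the same place in both.

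Between MT and MB, members were called in both directions in both cell populations. In shKap1 cells, 9 members rose and 4 fell (43.3% of the 30), where 33.1% of all tested genes were called (16.6% higher and 16.5% lower). In shCtrl cells, 13 rose and 6 fell (63.3% of the 30), where 44.9% of all tested genes were called (22.3% higher and 22.6% lower). The members that fell were thus near the share of all genes in both populations. The median log2 change of the 30 members was 0.06 in shKap1 cells and 0.73 in shCtrl cells, against 0.02 and -0.01 over all tested genes. Both comparisons share the estimate of the batch difference, which comes from the MB libraries.

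Mest rose by 2.72 ± 0.15 in shKap1 cells and 4.85 ± 0.15 in shCtrl cells (log2, SE, edgeR adjusted p = 1.59e-06 and 6.71e-09). Ddc rose by 2.63 ± 0.33 in shKap1 cells and 6.14 ± 0.32 in shCtrl cells (edgeR adjusted p = 0.000324 and 3e-07). Peg3 rose by 2.07 ± 0.16 in shKap1 cells and 1.87 ± 0.16 in shCtrl cells (edgeR adjusted p = 4.17e-05 and 1.87e-05), and Zim1 by 2.52 ± 0.22 and 3.31 ± 0.22. These sizes depend on the MB replicate, with replicate 1 the low one. Peg3 in MB replicate 2 (522 CPM with shKap1 and 493 CPM with shCtrl) lay close to the MT libraries. In the fit without the batch term and without replicate 1 of the group, the Peg3 change was 0.24 in shKap1 and 0.26 in shCtrl cells, that of Zim1 -0.14 and 0.94, that of Mest 0.39 and 2.64, and that of Ddc -0.49 and 3.04.

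The other members that rose in both populations were Airn (1.28 in shKap1 and 3.77 in shCtrl cells), Grb10 (3.28 and 4.94, from at most 5 counts in replicate 1 of either MB group), Trappc9 (0.59 and 1.28), Sgce (0.81 and 0.82) and Copg2 (0.62 in shKap1 and 0.63 in shCtrl cells). Without replicate 1 of the group and without the batch term, Airn gave 0.12 in shKap1 and 2.43 in shCtrl cells, Grb10 -0.36 and 1.78, and Copg2 -0.023 and 0.011. The corresponding values were 0.18 and 1.05 for Trappc9 and 0.65 and 0.61 for Sgce. Airn is uncertain for another reason, since the strand setting of the counting is not given and reads of Igf2r introns could be assigned to it.

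Peg10, Ube3a and Peg12 fell in both populations. Peg10 fell by 1.82 ± 0.16 in shKap1 cells and by 1.17 ± 0.16 in shCtrl cells (log2, SE, edgeR adjusted p = 5.8e-05 and 0.000245), and both MT libraries lay below all MB libraries. Ube3a changed by -0.82 and -0.58 and Peg12 by -0.87 and -1.67 in shKap1 and shCtrl cells, and for both genes the MT libraries again lay below the MB libraries. Peg12, a regulator of the kinase GSK3, had 3.59 CPM in the MT shKap1 library and 2.09 CPM in the MT shCtrl library, against 6.49 and 5.61 CPM in the MB shKap1 libraries and 6.46 and 6.67 CPM in the MB shCtrl libraries.

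Gatm moved in opposite directions, falling by 0.71 ± 0.13 in shKap1 cells and rising by 1.86 ± 0.12 in shCtrl cells (log2, SE, edgeR adjusted p = 0.00283 and 1.51e-06). In shCtrl cells Gnas rose by 1.2 ± 0.21 (SE, edgeR adjusted p = 0.00109), Osbpl5 by 0.83 ± 0.12 (SE, edgeR adjusted p = 0.000385) and Zdbf2 had 47 counts in MT against 3 in MB, a ratio of 26 (exact 95% interval 8.36 to 130). Zdbf2, counted among the 13, is again a description, since it passed the filter only through that MT library. Impact, Slc38a4 (an amino acid transporter) and Asb4 fell there, by 0.51, 1.11 and 3.47 on the log2 scale. Asb4 had 1 count in MT against 14 in MB. Counted among the 6 that fell, it is likewise a description, since it passed the filter only through MB libraries, where it is high. Without shCtrl replicate 1 and the batch term, Impact gave 0.15, Gnas 0.47, Slc38a4 -1.83 and Asb4 -1.74. These genes did not pass in shKap1 cells, where Gnas changed by -0.48, Osbpl5 by 0.32, Impact by 0.04 and Slc38a4 by -0.47.

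Without the batch term, 5 of 30 members in shKap1 cells and 8 in shCtrl cells had an unadjusted p under 0.05, as did 2511 and 4174 of all genes, and DESeq2 called 1 and 7 members. The smallest p among members was 0.00694 for Peg10 in shKap1 cells and 0.00309 for Gatm in shCtrl cells (edgeR, adjusted p = 0.267 and 0.0748). With the batch term DESeq2 lost Airn, Grb10, Peg12 and Trappc9 in shKap1 cells and Asb4 and Slc38a4 in shCtrl cells.

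Whether the knockdown effect itself differed between stages was tested as the MT effect minus the MB effect. Gatm, Mest, Ddc, Airn, Gnas and Trappc9 were called with a lower effect in MT than in MB, as was Zdbf2 under the limit given above, and 0 members were called with a higher one, although 10 of the 30 had a difference above 0. That is 7 of 30 members, where 10.5% of all tested genes were called (3.82% higher and 6.63% lower), and the median of the 30 was -0.31, against 0.02 over all tested genes. The differences were -2.57 ± 0.17 for Gatm, -2.12 ± 0.19 for Mest, -3.51 ± 0.39 for Ddc and -2.49 ± 0.35 for Airn (log2, SE, edgeR adjusted p = 9.31e-06, 8.09e-05, 0.000368 and 0.00162). For Gnas the difference was -1.67 ± 0.29 and for Trappc9 -0.69 ± 0.19 (SE, edgeR adjusted p = 0.00489 and 0.049). Within batch 1, the 4 single libraries gave -2.54 for Gatm, -1.93 for Mest, -3.38 for Ddc, -2.74 for Airn, -1.66 for Gnas and -0.50 for Trappc9.

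Among the genes that did not pass were Sgce, at -0.01 ± 0.16, and Copg2 and H13, at -0.01 and -0.02. Osbpl5 (-0.52) and Peg10 (-0.65) missed the threshold, with edgeR adjusted p of 0.073 and 0.0753, and without the filter on low counts both were called lower, as was Zim1. Without the batch term 2 members and 825 genes had an unadjusted p under 0.05 for this difference, and DESeq2 called 1 member. The smallest among members was that of Gatm (edgeR adjusted p = 0.927). With total library size the Trappc9 call was lost and Impact was called higher, and DESeq2 with the batch term lost Trappc9 and Zdbf2. Leaving out shKap1 replicate 2 took the Mest difference to -0.53, the Ddc difference to -1.22 and the Trappc9 difference to -0.43 without the batch term, and leaving out shCtrl replicate 2 took that of Mest to -3.60 and that of Ddc to -5.74. Gatm stayed between -2.78 and -2.34 over the 4 omissions.

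Genes that keep imprints were followed alongside. Of the 26 listed, 24 were tested. In MB, Trim28, the target of the hairpin, alone was called, with a log2 change of -2.03, where 3.84% of all tested genes were called. In MT, Setdb1, the histone methyltransferase that works with KAP1, rose by 0.71. Trim28, Dnmt3a, Cbx5 and Zfp445 fell there, by 1.78, 0.59, 0.52 and 0.45 (edgeR adjusted p of these calls from 1.69e-05 to 0.0397). That is 1 higher and 4 lower of the 24, where 20.3% of all tested genes were called, so the count is near that of all genes. The median of the 24 was -0.01 in both stages. Zfp57 had 36.1 CPM in the MT shKap1 library and 27.3 CPM in the MT shCtrl library, with 23.5 and 20.1 CPM in the MB shKap1 libraries and 19.7 and 18.8 CPM in the MB shCtrl libraries, and was not called for the knockdown at either stage. Between MT and MB, 2 of the 24 rose and 6 fell in shKap1 cells and 4 rose and 10 fell in shCtrl cells, where 33.1% and 44.9% of all tested genes were called, so the count in shKap1 cells is near that of all genes. The DNA methylation maintenance genes Dnmt1 and Uhrf1 fell in both, by 1.24 and 1.34 in shKap1 cells and by 1.09 and 1.11 in shCtrl cells. The 2 proliferation markers, Mki67 and Top2a, were also lower in MT. They summed to 646 CPM in the MT shKap1 library and 528 CPM in the MT shCtrl library. In MB they summed to 1019 and 1442 CPM with shKap1 and 1432 and 1579 CPM with shCtrl. The part of proliferation in the fall of Dnmt1 and Uhrf1 was not tested. For the stage difference of the knockdown effect, Dnmt3a alone was called, at -0.94, where 10.5% of all tested genes were called.

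Of other imprinted genes and neighbours at the same loci, 35 were listed and 23 tested. With the knockdown, 2 were called higher and 0 lower in MB, where 3.84% of all tested genes were called. In MT, 2 were called higher and 6 lower, where 20.3% of all tested genes were called. Their median log2 change was 0.13 in MB and -0.06 in MT, against -0.01 and 0.02 over all tested genes. In MT, Cdkn1c, the cyclin-dependent kinase inhibitor of the Kcnq1 locus, had 6.70 CPM in the shKap1 library and 91.5 CPM in the shCtrl library, against 2.17 and 2.06 CPM in the MB shKap1 libraries and 1.12 and 2.17 CPM in the MB shCtrl libraries. It changed by -3.91 ± 0.28 (SE, edgeR adjusted p = 0.00016). Cobl, an actin nucleator beside Grb10, changed by -1.96, and Dcn, the proteoglycan decorin, by -1.27. Igf2r, the receptor across which Airn is transcribed, rose by 0.43 in MB and fell by 0.86 in MT. Between MT and MB, 5 of the 23 rose and 2 fell in shKap1 cells, and 10 rose and 2 fell in shCtrl cells, near the 33.1% and 44.9% of all tested genes called. For the stage difference 0 were called higher and 7 lower, where 10.5% of all tested genes were called (3.82% higher and 6.63% lower). The median of the 23 was -0.22, against 0.02 over all tested genes.

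Nuclear-retained RNAs were followed because cytoplasmic RNA was used. Of 10 listed, 5 were tested. With the knockdown, 0 were called in MB and 4 fell in MT (Xist, Airn, Neat1 and Malat1). Of all tested genes, 3.84% were called in MB and 11.2% were called lower in MT. From MB to MT, 4 rose in shKap1 cells and 5 in shCtrl cells, where 16.6% and 22.3% of all tested genes rose. For the stage difference 2, Airn and Xist, were called lower, as were 6.63% of all tested genes. Malat1 had 1513 CPM in the MT shKap1 library and 1929 CPM in the MT shCtrl library. Airn, which is in this list, thus moved in the same direction as nuclear RNAs in MT, with a larger fitted change (-2.42 against -0.49 for Malat1 and -1.31 for Xist), and the part of nuclear RNA in its change was not tested.

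Several members share exons with a gene on the opposite strand, and reads of such partners cannot be told apart without strand. Mest and Copg2 share 912 bases, which is 23.1% of the Mest exons, and Mest equalled 0.634 of Copg2 in CPM in the MT shKap1 library and 1.39 in the MT shCtrl library, against 0.141 and 0.476 in the MB shKap1 libraries and 0.0800 and 0.225 in the MB shCtrl libraries. Zrsr1 and Commd1 share 412 bases, Tssc4 and Trpm5 220 bases, and Gnas shares 1469 bases with the predicted gene Gm20721 and 988 bases with its antisense RNA Nespas. The overlaps were read from a later annotation than the one used for counting.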

How the data were processed

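Cytoplasmic polyadenylated RNA of 6 libraries was analysed from the deposited read counts per Ensembl gene. The submitters' processing notes name TopHat2 2.0.11, HTSeq and the mm9 build. Annotation release, counting mode and strand setting: not given in the sources used here. Lines that name no gene (reads outside genes, 5.18% to 8.07%, and ambiguous reads, 2.81% to 2.93%) stayed out of library sizes and tests. Symbols came from a later annotation (GENCODE vM21, GRCm38) by Ensembl identifier, so no mm9 coordinates are given. Promoter windows came from RefSeq.

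Groups and replicate numbers came from the sample titles. CPM in the text is a count over the library's total on genes. The test was edgeR's robust quasi-likelihood test (version 4.0.16, R 4.3.3, TMM factors 0.972 to 1.07, filterByExpr), with DESeq2 1.42.0 as an alternative, on 16472 genes in 5 contrasts. Adjusted p-values are Benjamini-Hochberg over all genes, with a threshold of 0.05. The design without a batch term was the primary fit and the one with it a second designed fit. Differences within a batch used TMM-scaled library sizes and a prior count of 0.5. Members with few counts have a ratio of summed counts with an exact 95% interval, or as a bound at a floor of 3 counts, both of which cover counting error only. Same-numbered MB libraries deviated together from their group means (r = 0.717, rho = 0.670, across genes, which are not independent replicates), over 2 pairs only. Fold change, SE and adjusted p are given for members called with the batch term and for up to 4 per comparison with the smallest unadjusted p without it; of other lists, up to 3 per comparison were to be named, and further called genes in the text were chosen after their values were seen. The members and lists were chosen with earlier results of these data known. The fitting was tested on simulated data. Alternatives were scaling, the filter on low counts, the tool, the batch term and leaving out each MB library.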

Additional observations from a re-analysis of the deposited data

Results flagged for a closer look

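For 7 members the effect of the knockdown differed between stages, by the test of the MT effect minus the MB effect in edgeR with the batch term (log2). The difference was -2.57 for Gatm, -2.12 for Mest, -3.51 for Ddc, -2.49 for Airn, -1.67 for Gnas and -0.686 for Trappc9. For Zdbf2 the same test passed, and since the MT shKap1 library had 0 counts its value is given as a bound, at least 11.4-fold lower in the MT shKap1 library than in the MT shCtrl library. It passed the filter on low counts only through the MT shCtrl library, so this value is a description. Each MT group is 1 library, and without the batch term 0 of the 7 passed after adjustment in edgeR, while DESeq2 called 1 member lower. The 7 differentiation markers summed to 113 CPM in the MT shKap1 library and 6371 CPM in the MT shCtrl library, and their part in these differences was not tested.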

How the results depend on the processing

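Without the batch term, 0 members were called in each comparison by edgeR. With the replicate block, entered as the batch term, the counts were 4 for the knockdown in MB, 11 for the knockdown in MT, 13 for MT against MB in shKap1 cells, 19 for the same in shCtrl cells and 7 for the stage difference. DESeq2 without the block called 1 in MT, 1 in shKap1 and 7 in shCtrl differentiation and 1 for the stage difference, and dropping the filter on low counts gave 1 in shCtrl differentiation. DESeq2 with the block called 2 in MB and 6 in MT. Total library size, DESeq2 size factors and no filter left each count with the block within 1.5 times, but dropping the filter added Gatm and Grb10 in MB and Osbpl5, Peg10 and Zim1 for the stage difference, and DESeq2 size factors lost Sgce in MT.

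Leaving out each MB library in turn was run without the block, since with it no residual degree of freedom remains. The counts stayed at 0 to 0 in every comparison, but some log2 changes took the opposite sign. In MB the knockdown change ran from -0.60 to 2.46 for Mest, -1.02 to 3.49 for Ddc and -0.98 to 3.50 for Grb10. In shKap1 differentiation the change ran from -0.14 to 2.72 for Zim1, -0.49 to 2.66 for Ddc, -0.0226 to 0.63 for Copg2 and -0.36 to 3.95 for Grb10, and in shCtrl differentiation from -0.43 to 0.15 for Impact. Such omissions leave groups of unequal batch makeup. The MT libraries could not be left out of their own comparisons, and the depth limits genes under about 0.0828 CPM.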

Other observations

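Reads at the Snrpn locus are not wholly missing from the counts. Gm38393, a predicted gene annotated on the same strand over Snrpn exons, had 11.2 CPM in the MT shKap1 library and 7.04 CPM in the MT shCtrl library, with 8.57 and 14.1 CPM in the MB shKap1 libraries and 6.89 and 9.99 CPM in the MB shCtrl libraries. It was singled out after its values were seen, and whether its counts stand for Snrpn was not tested. Magel2 had 12 counts in the MB shKap1 libraries and 2 in the MB shCtrl libraries, a ratio of 5.49 (exact 95% interval 1.22 to 50.5, counting error only), with all 12 counts in shKap1 replicate 2.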
